A study of Rattus norvegicus with 13 samples.

Results

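The transcripts examined here are 9 genes read as outputs of YAP and of TGF-beta, namely Ccn1, Ccn2, Ajuba, Amotl2, Ankrd1, Pmepa1, Tgfb1, Tgfbi and Crim1, taken by gene symbol from the annotation of an Illumina rat expression array. Of these, 8 had a probe, and each had only 1, among the 13337 genes named on 22523 probes. Amotl2 had none and is not analysed further as a transcript. The 8 genes did not move as a block. In oval cells of the Resistant-Hepatocyte (R-H) model Ccn2, Pmepa1, Ccn1 and Ajuba rose over control liver, with Ccn2 at 16-fold and Pmepa1 at 14.4-fold in the fit. In early preneoplastic foci (EPFs) Ccn2 alone of these 4 passed the same limits against control liver, at 2.09-fold. Several other settings did not keep that call. Tgfbi fell under control liver in both oval cells and EPFs. By deposited intensity, Crim1 lay above control liver in every oval cell array and below it in every EPF array. Every EPF array and 1 of the 2 controls were under 300, the working limit of detection used below.

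The R-H model turns a carcinogen, a diet and surgery into a synchronous growth of altered hepatocytes. Male Fischer rats were given diethylnitrosamine, then fed 2-acetylaminofluorene and subjected to partial hepatectomy. The arrays held 3 groups, one array per RNA sample: Oval cells (n = 6), Preneoplastic foci (n = 5), which are the EPFs, and Control (n = 2). Oval cells resemble small bile duct cells and multiply after surgery, and EPFs are small clusters of altered hepatocytes. Both had been exposed to all agents of the protocol and were collected by laser microdissection 1 week after surgery, as pools. Morphology, with stains for CK-19, GSTP and GGT, had served to choose the oval cells. The 6 oval cell arrays are more than the animals named in the methods, so some share an animal, the EPF pools may do so too, and p-values over arrays are then too small. The controls were labelled as hepatocytes of liver. The supplement describes random areas of normal liver and the main methods random areas from R-H rats, so it is not clear whether the controls carry the treatment. Going by the long numbers in the sample titles, taken here as slide numbers, Control and Oval cells lay on slide 1 and Preneoplastic foci on slide 2, so that slide and group cannot be told apart wherever EPFs are compared.

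YAP is a transcriptional coactivator that the Hippo kinases keep out of the nucleus by phosphorylation. When released, it binds TEAD factors and drives genes such as Ccn1, Ccn2 and Ankrd1, and in liver it is known for its role in biliary and progenitor cell growth. TGF-beta ligands are stored in the matrix in a latent form and, once freed, signal through serine/threonine kinase receptors to Smad factors, with fibrosis and growth arrest of hepatocytes among their known effects. The pathways share targets, Ccn2 among them, and the level of a transcript does not tell which of them set it.

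Values are deposited, quantile-normalized intensities on a linear scale, in which 183.2 was the median of all probes. The intensity filter of the study's methods, 300, served here as a working limit of detection and is not a measured one. On each array 26.8% of probes exceeded 300, a share that quantile normalization makes equal, arrays of 1 group correlated at 0.986 to 0.995, and precision is limited by how many arrays there are. Differences are log2 differences from a limma fit over all 13 arrays and 6997 probes, after background correction, and a gene changed where its Benjamini-Hochberg adjusted p was under 0.05 and its difference at least 2-fold. If all arrays of one group were under 300, a lower bound of the fold is given, the other group's mean over 300. By these limits 1781 probes changed in oval cells against control liver (52.9% of them higher), 1268 in EPFs against control liver (56.9% higher) and 1028 in oval cells against EPFs. When arrays were centred on ribosomal protein genes instead, the counts against control liver were 3266 in oval cells, of which 10.2% were higher, and 2866 in EPFs, of which 5.9% were higher. With that centring the median log2 difference of all tested probes was -0.85 in oval cells and -0.80 in EPFs, in place of 0.01 in both, so each direction against control liver below is relative to the bulk of probes. Among the members in oval cells against control liver, that centring gave log2 differences of 3.14 for Ccn2, 2.99 for Pmepa1 and 1.31 for Ccn1, all still past the limits.

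The bases just before the start of a gene are where TEAD and Smad factors can bind, and the windows of Ccn2, Ccn1 and Ajuba are shown because they hold the core word of TEAD sites, GGAATG or its reverse complement CATTCC, in capitals. That of Pmepa1, which holds neither, is shown beside them because its transcript stood out as much as that of Ccn2. Each runs over the 250 bases before the annotated start, in the direction of transcription, from RefSeq on GRCr8: Ccn2 at chr1:22624615-22624864, Ccn1 at chr2:237225690-237225939, Ajuba at chr15:32000043-32000292 and Pmepa1 at chr3:182478650-182478899, all on the minus strand.
Ccn2: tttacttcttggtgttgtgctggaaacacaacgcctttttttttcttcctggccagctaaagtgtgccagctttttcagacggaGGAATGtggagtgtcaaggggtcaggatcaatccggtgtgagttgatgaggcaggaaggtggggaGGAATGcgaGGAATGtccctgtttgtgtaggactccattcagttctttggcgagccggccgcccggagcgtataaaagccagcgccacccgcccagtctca
Ccn1: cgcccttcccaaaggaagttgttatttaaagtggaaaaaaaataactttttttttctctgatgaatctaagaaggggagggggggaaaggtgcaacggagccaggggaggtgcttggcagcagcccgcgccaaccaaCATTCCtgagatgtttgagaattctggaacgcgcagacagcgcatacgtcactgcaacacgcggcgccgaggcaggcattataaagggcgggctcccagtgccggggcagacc
Ajuba: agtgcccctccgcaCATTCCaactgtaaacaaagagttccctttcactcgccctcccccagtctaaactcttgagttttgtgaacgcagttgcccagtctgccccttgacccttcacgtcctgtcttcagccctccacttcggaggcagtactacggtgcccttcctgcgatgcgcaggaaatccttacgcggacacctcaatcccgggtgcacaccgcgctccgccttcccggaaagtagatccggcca
Pmepa1: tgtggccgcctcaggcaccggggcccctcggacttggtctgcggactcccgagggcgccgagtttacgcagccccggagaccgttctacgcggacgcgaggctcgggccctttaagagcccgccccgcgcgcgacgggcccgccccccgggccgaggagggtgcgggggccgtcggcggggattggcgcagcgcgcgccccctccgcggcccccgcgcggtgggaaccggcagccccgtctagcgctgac

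Windows of 300 bases, from 250 before to 50 after the start, matched 8 of the 9 genes by symbol, all but Ankrd1. GGAATG or CATTCC occurred in 4 of the 8, against 14.2% of the 33469 windows of the whole table. Ccn2 held it 3 times, at 166, 101 and 92 bases before the start and all on the strand of the gene, while 0.0956% of all windows held 3 or more. Ccn1 held it once at 113 bases before the start, Ajuba once at 236 and Amotl2 once at 76, all on the opposite strand. The word CAGACA or its reverse complement TGTCTG, which Smad factors can bind, lay in the windows of Ccn1 and Ajuba, 2 of 8, against 21.1% of all windows. In Ajuba it began at base 3 after the start. The shorter CAGAC or its reverse complement GTCTG was not counted. It stands in the printed bases of Ccn2, Ccn1, Ajuba and Pmepa1, so the longer word does not show which windows lack a Smad-type site. The AP-1 word TGANTCA, whose reverse complement has the same form, was in 0 of the 8, against 7.33% of all windows. None of the words counted overlapped another in the 8 windows, and a match is a run of letters, not a bound site.

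**Figure D1:**
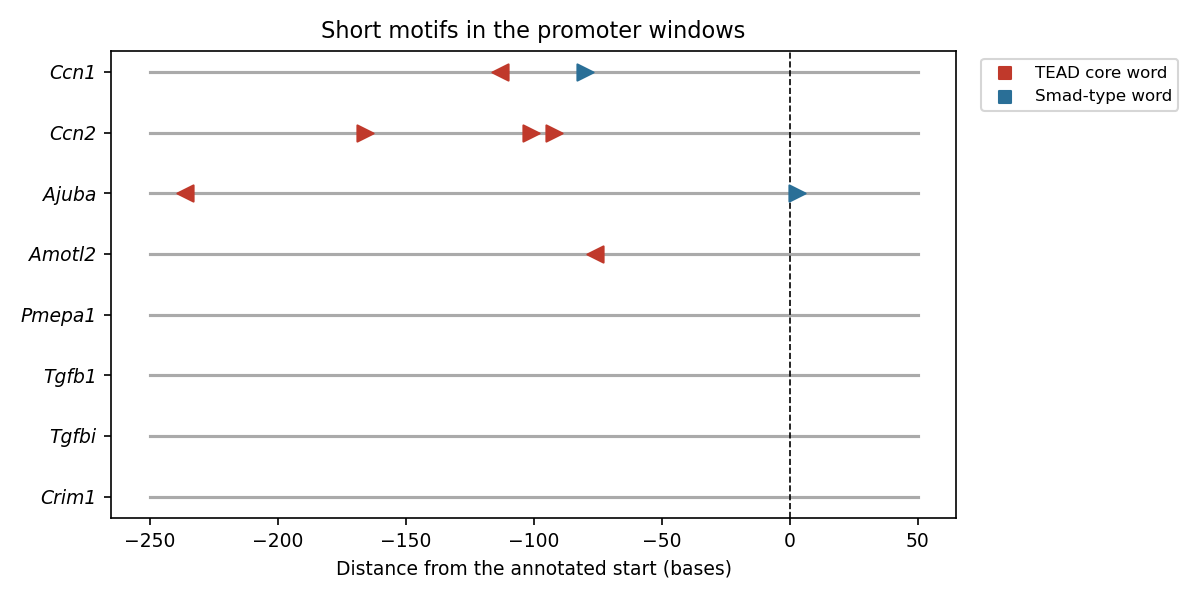
Matches to 2 short words, GGAATG (TEAD core) and CAGACA (Smad-type), in the promoter windows of the 8 genes with a window. They are placed by distance from the annotated start in bases. Triangles point right for the strand of the gene and left for the opposite strand. Ccn2 carries 3 matches to the TEAD core word, Ccn1, Ajuba and Amotl2 carry 1 each, and Pmepa1, Tgfb1, Tgfbi and Crim1 carry none of either word.

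Ccn2, the secreted matrix protein also known as connective tissue growth factor, was the member with the widest gap between oval cells and control liver. Its intensity in oval cells ran from 8673 to 13278, with a median of 10454. EPFs had 929, 2515, 1693, 1114 and 1470, and control liver had 793 and 671. Every oval cell array was above every EPF array, and every EPF array was above both controls. The means were 10743 ± 1892 in oval cells (SD, n = 6), 1544 ± 619 in EPFs (n = 5) and 732 ± 86.3 in control liver (n = 2). Ccn2 rose by 4.0 ± 0.29 on the log2 scale (SE, limma adjusted p = 2.09e-08, 16-fold) in oval cells against control liver. Against EPFs the difference of oval cells was 2.93 ± 0.21 (limma adjusted p = 2.29e-08, 7.64-fold). EPFs rose over control liver by 1.07 ± 0.30 (limma adjusted p = 0.00575, 2.09-fold), just past the limit of 2-fold. Without EPF replicate 2, the highest, that difference was 0.86 (adjusted p = 0.00529) and under the limit, without control replicate 2 it was 0.93 (adjusted p = 0.0619), and with ribosomal protein genes as the centre it was 0.25 (adjusted p = 0.412). Since these are pieces of tissue, more cells that express a gene and more RNA per cell cannot be told apart here or in any result below.

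Ccn1, a secreted relative of Ccn2 and likewise an immediate target of YAP, passed the limits in both comparisons of oval cells and not in EPFs against control liver. Oval cells ran from 1016 to 1637 with a median of 1326, while EPFs had 371, 570, 506, 421 and 373 and control liver had 285 and 420. The oval cell arrays were above all others, and the EPF arrays overlapped with the controls. Ccn1 rose by 2.17 ± 0.23 on the log2 scale (limma adjusted p = 7.84e-07, 4.49-fold) in oval cells against control liver and by 1.73 ± 0.17 (limma adjusted p = 3.46e-07, 3.32-fold) in oval cells against EPFs. The difference of EPFs from control liver was 0.43 ± 0.23 (limma adjusted p = 0.112), with a 95% interval from -0.06 to 0.93, and it was -0.38 (adjusted p = 0.141) with ribosomal protein genes as the centre. The interval leaves room for close to a 2-fold difference.

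Ankrd1, a nuclear ankyrin repeat protein best known from muscle and a common YAP reporter, was dim. Oval cells had 239 to 343 with a median of 285, and 2 of 6 arrays were over 300. EPFs had 163, 221, 192, 205 and 175, and control liver had 175 and 160. All oval cell arrays lay above all others, with EPFs and control liver overlapping near the median of all probes. The probe did not reach a group median of 300 and was not among those tested. With all 22523 probes in the fit, oval cells differed by 1.13 ± 0.17 from control liver (limma adjusted p = 2.31e-05) and by 0.84 ± 0.13 from EPFs (limma adjusted p = 2.47e-05). In the same fit EPFs differed from control liver by 0.30 ± 0.18 (limma adjusted p = 0.255).

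Ajuba, a LIM domain protein at cell junctions that restrains the LATS kinases of the Hippo pathway, formed 3 separate steps. Oval cells ran from 1849 to 2614 with a median of 2081, EPFs had 1375, 1335, 1376, 1300 and 1418, and control liver had 653 and 792. No array of one group reached the range of another, and the EPF arrays lay close together (1361 ± 44.8, SD, n = 5). Ajuba rose by 1.66 ± 0.12 on the log2 scale (limma adjusted p = 2.20e-08, 3.16-fold) in oval cells against control liver, and with ribosomal protein genes as the centre by 0.80, under the 2-fold limit. EPFs differed from control liver by 0.99 ± 0.12 (limma adjusted p = 7.59e-06, 1.99-fold), at the edge of the fold limit. It passed that limit at 1.03 with a smaller background offset, 1.15 without control replicate 2 and 1.01 without EPF replicate 4, and was 0.18 (adjusted p = 0.183) with ribosomal protein genes as the centre. Between oval cells and EPFs the difference was 0.67 ± 0.09 (limma adjusted p = 9.87e-06, 1.59-fold).

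**Figure D2:**
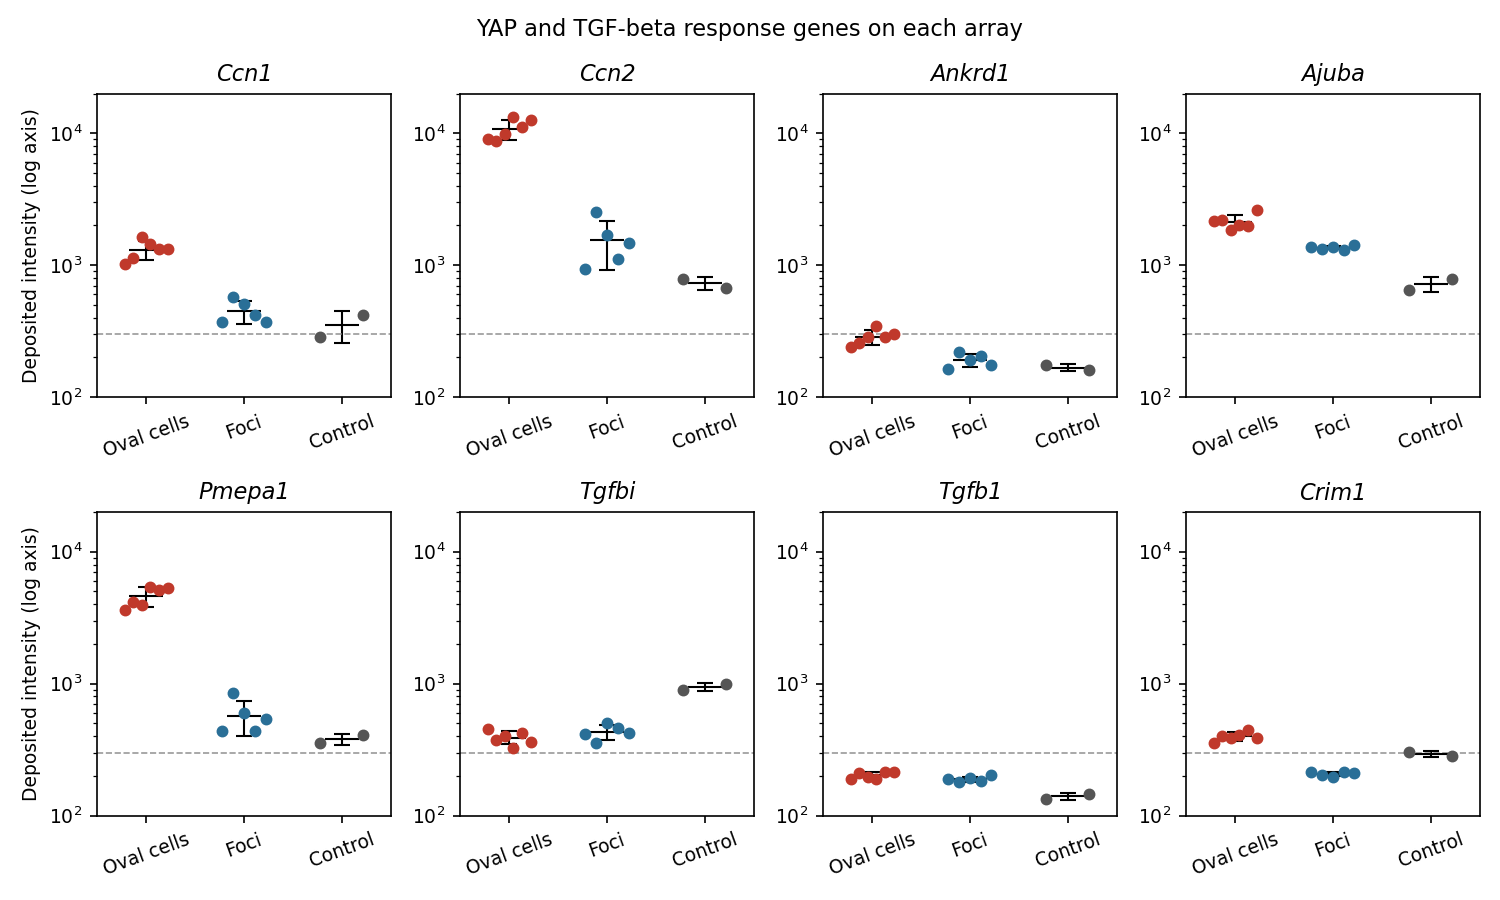
Deposited intensity (log axis) of the 8 genes with a probe on each of the 13 arrays, in oval cells, preneoplastic foci (EPFs) and control liver. Points are arrays, bars are the mean and SD, and the dashed line is the limit of 300. Ccn2, Pmepa1 and Ccn1 were highest in oval cells, Tgfbi was highest in control liver at 902 and 998, and Tgfb1 was under 300 on every array.

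Pmepa1, a membrane protein that TGF-beta induces and that limits Smad signalling in turn, had the smallest adjusted p of the members in both comparisons of oval cells. Oval cells ran from 3600 to 5407 with a median of 4627. EPFs had 435, 849, 601, 440 and 540, and control liver had 355 and 406. The oval cell arrays were far above all others, and every EPF array was above both controls. Pmepa1 rose by 3.85 ± 0.24 on the log2 scale (limma adjusted p = 5.39e-09, 14.4-fold) in oval cells against control liver and by 3.21 ± 0.18 (limma adjusted p = 2.23e-09, 9.23-fold) in oval cells against EPFs. EPFs differed from control liver by 0.64 ± 0.25 (limma adjusted p = 0.0325, 1.56-fold), under the fold limit, and -0.17 (adjusted p = 0.50) with ribosomal protein genes as the centre.

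Tgfbi, a secreted matrix protein named for its induction by TGF-beta, went the other way. Oval cells ran from 328 to 453 with a median of 390, EPFs had 419, 352, 501, 460 and 422, and control liver had 902 and 998. Both controls were above every other array, and oval cells and EPFs overlapped. Tgfbi fell by 1.47 ± 0.16 on the log2 scale (limma adjusted p = 9.49e-07, 2.76-fold lower) in oval cells against control liver and by 1.30 ± 0.16 (limma adjusted p = 6.35e-06, 2.46-fold lower) in EPFs against control liver. Between oval cells and EPFs the difference was -0.17 ± 0.12 (limma adjusted p = 0.210), with a 95% interval from -0.41 to 0.08.

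Tgfb1, the ligand itself, was close to the background of the array. It had 189 to 213 with a median of 204 in oval cells, 188, 181, 192, 183 and 203 in EPFs, and 134 and 146 in control liver. Both controls were below all other arrays, but every value lay under 300 and the probe was not among those tested. With all probes in the fit the difference from control liver was 0.93 ± 0.12 in oval cells (limma adjusted p = 3.31e-06) and 0.78 ± 0.12 in EPFs (limma adjusted p = 5.39e-05), and that between oval cells and EPFs 0.14 ± 0.09 (limma adjusted p = 0.267). No fold is given, as both sides were under the limit of detection.

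Crim1, a membrane protein with cysteine-rich repeats that binds BMPs and other ligands of the TGF-beta family, lay on opposite sides of control liver in oval cells and EPFs. Oval cells ran from 356 to 448 with a median of 396, EPFs had 213, 202, 196, 213 and 210, and control liver had 305 and 283. Every oval cell array was above both controls and every EPF array below them. Crim1 was at least 1.33-fold higher in oval cells than in EPFs, where every array was under 300 (log2 difference 1.27 ± 0.08, limma adjusted p = 3.56e-09). Against control liver the differences were under the fold limit, at 0.55 ± 0.10 in oval cells (limma adjusted p = 0.000192) and -0.71 ± 0.10 in EPFs (limma adjusted p = 3.25e-05). With ribosomal protein genes as the centre the oval cell difference turned to -0.30 (adjusted p = 0.00875) and that of EPFs was -1.52, while oval cells against EPFs stayed at 1.22. Without background correction that last difference was 0.94, under the fold limit.

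Counted together, 5 of the 6 tested members changed in oval cells against control liver, 4 of them higher (Ccn1, Ccn2, Ajuba, Pmepa1) and 1 lower (Tgfbi), where 25.5% of all tested probes changed, 13.5% higher and 12.0% lower. Of the same 6, 2 changed in EPFs against control liver, Ccn2 higher and Tgfbi lower, against 18.1% of all tested probes, 10.3% higher and 7.80% lower. Of the 6, 4 changed in oval cells against EPFs, all higher (Ccn1, Ccn2, Pmepa1, Crim1), against 14.7% of all tested probes, 7.96% higher and 6.73% lower. These counts describe the 6 members bright enough to be tested, not all 9. Crim1 passed the intensity filter through oval cells alone, so its place among those higher in oval cells than in EPFs leans on that filter. The groups did not overlap for 6 of 6 members in oval cells against control liver, where 73.3% of tested probes did not either. The same held for 5 of 6 in EPFs against control liver (68.5% of tested probes) and 5 of 6 in oval cells against EPFs (51.5%). The median log2 difference of the tested members was 1.91 in oval cells against control liver, 0.54 in EPFs against control liver and 1.5 in oval cells against EPFs, and that of all tested probes was 0.01, 0.01 and -0.03 in the same order. By adjusted p alone 6 of 6 passed in oval cells against control liver (70.9% of tested probes), 5 of 6 in EPFs against control liver (64.8%) and 5 of 6 in oval cells against EPFs (70.1%), so a share of that kind was near the background. These comparisons share arrays with each other and are not independent.

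**Figure D3:**
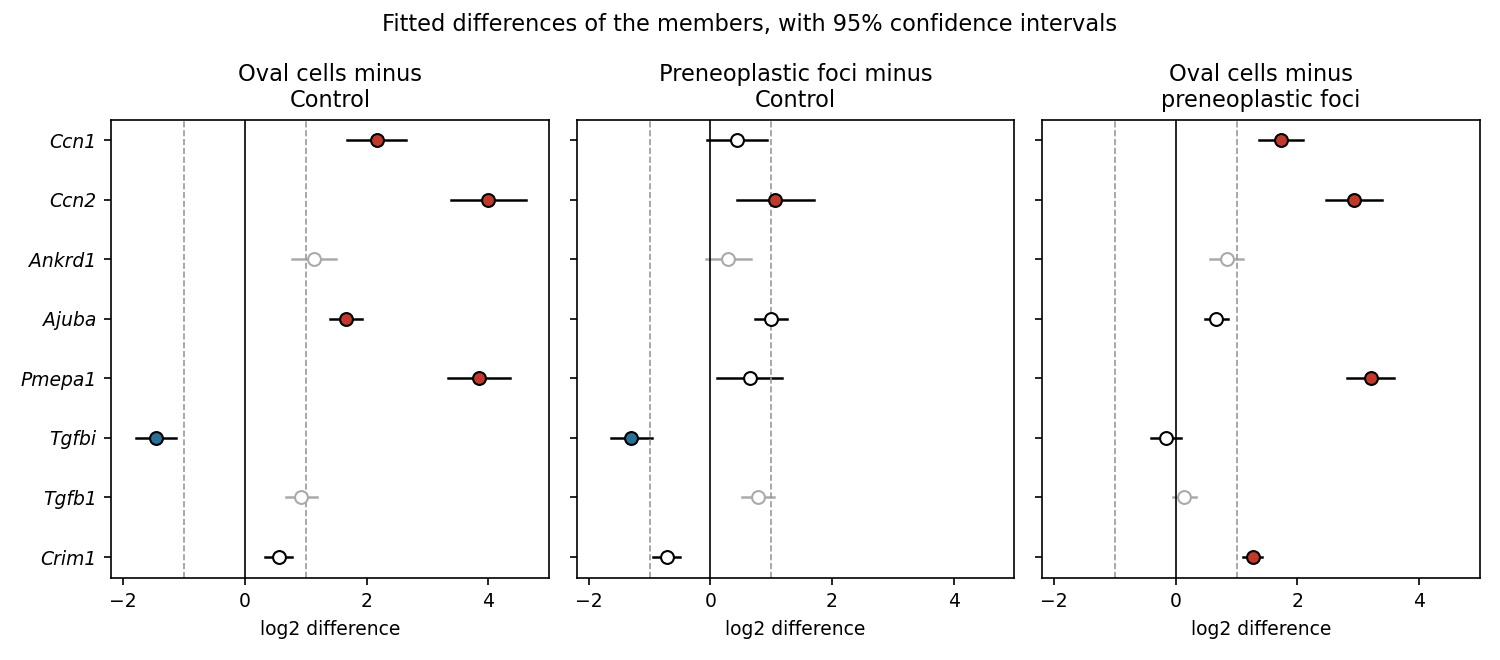
Fitted log2 differences (points) with 95% confidence intervals (lines) of the 8 genes in the 3 comparisons. Red marks genes higher and blue genes lower by adjusted p and 2-fold, white the rest, grey outlines the dim and untested Ankrd1 and Tgfb1 (fit of all probes), and dashed lines a 2-fold difference. Crim1 lies at 0.55 in oval cells, which turned to -0.30 with ribosomal protein genes as the centre, and at -0.71 in EPFs, while Tgfbi lies at -1.47 and -1.30.

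The genes closest to each member in pattern were sought by Pearson's r of log2 values over the 13 arrays, among 5464 tested probes with a gene name, as a description. The arrays fall into 3 groups, and genes that differ between the groups in the same way correlate over them. Closest to Ccn2 were Mgp (r = 0.996), Loxl1 (0.996) and Col1a1 (0.995), which encode matrix Gla protein, a lysyl oxidase that links elastin, and a chain of type I collagen. Pmepa1 was closest to Loxl1 (r = 0.997), the collagen gene Col1a2 (0.997) and Anxa1 (0.997), which encodes annexin A1. Ccn1 was closest to Plet1 (r = 0.986), a surface protein of progenitor cells, to the glypican gene Gpc3 (0.985) and to Loxl1 (0.983), so Loxl1 was among the closest 3 for all of these.

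The other members had other neighbours. Ajuba was closest to Ywhaz (r = 0.988), a 14-3-3 protein, Ppp1r14b (0.985), a phosphatase inhibitor, and Nde1 (0.981), a centrosome protein. Ankrd1 was closest to Pdlim3 (r = 0.979), Fhl2 (0.973) and Dclk1 (0.963), of which Pdlim3 and Fhl2 encode LIM domain proteins of the actin cytoskeleton. Tgfb1, under 300 throughout, was closest to Id1 (r = 0.975), Ccnd1 (0.972) and Cdk1 (0.970), an inhibitor of differentiation and 2 cell cycle genes. Tgfbi was closest to Gstm7 (r = 0.977), a glutathione transferase, Gphn (0.976) and Akr1c12 (0.976), an aldo-keto reductase. Among those closest to Crim1 were Myo9b (r = 0.987), an unconventional myosin, and Zswim8 (0.986).

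Other genes of both pathways were taken from lists. Counts of changed genes in these and in the marker lists stand against the shares of all tested probes. These were 25.5% in oval cells against control liver, 18.1% in EPFs against control liver and 14.7% in oval cells against EPFs. A probe could enter the test through 1 group alone, which favours genes high in that group. Map4k4, Fjx1, Tgfb2, Jag1, Acvrl1, Des and Krt7, for example, entered through oval cells alone. Of 24 YAP pathway components 16 had a probe and only 5 were tested, with Yap1, its paralogue Wwtr1, the kinases Lats1 and Lats2 and Tead2 among those under 300 in every group median. In oval cells against control liver 1 of the 5 rose, the kinase gene Map4k4, by at least 1.35-fold (mean 405 against 188 in control liver, log2 difference 1.51 ± 0.15, limma adjusted p = 6.50e-07), which ended with ribosomal protein genes as the centre (0.65). Against control liver, 0 of 5 passed the limits in EPFs in limma or the methods' t-test, and 3 of 5 had an unadjusted and an adjusted limma p under 0.05, namely Map4k4 with a difference of 0.45, Stk3 with -0.44 and Sav1 with -0.46. With ribosomal protein genes as the centre 3 of the 5 were lower in EPFs, Vgll4 at -1.18, Stk3 at -1.25 and Sav1 at -1.27. In oval cells against EPFs 2 rose, Map4k4 and the Hippo scaffold gene Sav1, whose means were 1286 in oval cells and 619 in EPFs (log2 difference 1.15 ± 0.06, limma adjusted p = 2.00e-09). That of Map4k4 ended without background correction (0.81) and without EPF replicate 2 (0.99). The median log2 differences of the 5 genes were 0.41 in oval cells against control liver, -0.37 in EPFs against control liver and 0.74 in oval cells against EPFs.

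Of 23 other YAP target genes 16 had a probe and 9 were tested. In oval cells against control liver 4 rose and 0 fell, with a median log2 difference of 0.85 over the 9. Of all tested probes 13.5% were higher and 12.0% lower in that comparison. The largest log2 difference of these was that of Fjx1, at least 2.24-fold higher (671 in oval cells, 179 in control liver, log2 difference 2.45 ± 0.18, limma adjusted p = 1.92e-08). The matrix gene Ccdc80 was 4.08-fold higher (7335 in oval cells, 1826 in control liver), the ligand Tgfb2 at least 1.42-fold and the Notch ligand Jag1 at least 1.35-fold. EPFs had 1 rise and 1 fall among the 9 against control liver, near the 10.3% higher and 7.80% lower of all tested probes. These were the stress gene Gadd45a at 1117 in EPFs and 430 in control liver (log2 difference 1.53 ± 0.19, limma adjusted p = 6.55e-06) and the IGF carrier Igfbp3 at 421 in EPFs and 1307 in control liver (-1.83 ± 0.21, limma adjusted p = 4.04e-06). Against EPFs, 5 rose and 0 fell in oval cells, namely Ccdc80, Fjx1, Tgfb2, Jag1 and Igfbp3, with a median log2 difference of 1.05. The rise of Gadd45a and those of Tgfb2 and Jag1 against control liver ended with ribosomal protein genes as the centre, and those of Tgfb2, Jag1 and Igfbp3 against EPFs ended without background correction, as did that of Jag1 against control liver. That centring gave 2 higher and 3 lower of the 9 in oval cells (Igfbp3 at -1.64, Nt5e at -1.57 and Nuak2 at -1.16 being lower), and 0 higher and 5 lower in EPFs. Against EPFs, the rises of Jag1 and Igfbp3 also ended with array weights and without oval cell replicate 6, that of Jag1 without oval cell replicate 4 or EPF replicate 4, and that of Igfbp3 without EPF replicate 5.

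Most tested genes for TGF-beta ligands and the proteins that hold them latent rose in oval cells. Of 17 listed genes 11 had a probe and 8 were tested. In oval cells against control liver 6 rose and 1 fell, with a median log2 difference of 1.79. Tgfb2, Ltbp2 and Itgb6 passed the intensity filter through oval cells alone, and Inhba through control liver alone. The counts and the median partly follow from that filter. The latent TGF-beta binding protein genes were among them, Ltbp1 at 1465 in oval cells and 424 in control liver (log2 difference 1.96 ± 0.22, limma adjusted p = 1.65e-06), Ltbp4 at 2466 in oval cells and 824 in control liver, and Ltbp2 at least 1.65-fold higher. The integrin subunit gene Itgb6, part of the receptor that frees latent TGF-beta, was at least 1.56-fold higher, and the proteoglycan gene Dcn, whose product binds the ligand, was 4.47-fold higher. The activin subunit gene Inhba fell by at least 1.13-fold in both oval cells and EPFs, with means of 178 in each against 338 in control liver (limma adjusted p = 7.65e-08 in oval cells and 1.93e-07 in EPFs), which ended without background correction. Against control liver, 0 of the 8 rose in EPFs in limma or the methods' t-test (1 was higher at an unadjusted p under 0.05) and Inhba was the 1 that fell, and in oval cells against EPFs 5 rose (Dcn, Ltbp1, Itgb6, Ltbp2, Tgfb2) and 0 fell. The rises of Itgb6, Ltbp2, Ltbp4 and Tgfb2 against control liver fell under 2-fold with ribosomal protein genes as the centre, at 0.96, 0.97, 0.78 and 0.91, leaving 2 of the 8 higher.

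Of 20 receptors and Smads 17 had a probe and 8 were tested. In each comparison 1 of the 8 changed. Of all tested probes 25.5% changed in oval cells against control liver, 18.1% in EPFs against control liver and 14.7% in oval cells against EPFs. With 8 genes a count of 1 does not set them apart from these shares. The endothelial receptor gene Acvrl1 rose in oval cells, by at least 1.65-fold against control liver (495 in oval cells, 266 in control liver) and by 2.06-fold against EPFs, both of which ended without background correction. With ribosomal protein genes as the centre the rise against control liver was 0.24 (adjusted p = 0.182), and that against EPFs fell just short of 2-fold, as it did without oval cell replicate 3 or 6. The inhibitory Smad gene Smad7, itself a TGF-beta target, rose in EPFs by at least 1.19-fold (357 in EPFs, 215 in control liver, log2 difference 1.00 ± 0.14, limma adjusted p = 3.00e-05), but was 0.19 (adjusted p = 0.176) with ribosomal protein genes as the centre. It also fell short of 2-fold without background correction, without control replicate 1 (0.76) and without EPF replicate 2, 3 or 5. The same centring left 0 of the 8 higher, with 4 lower in oval cells (Acvr1, Acvr2b, Smad1, Zfyve9) and 3 lower in EPFs (Acvr1, Acvr2b, Smad1). The common mediator Smad4 had means of 2405 in oval cells and 1830 in control liver, a log2 difference of 0.40 ± 0.12. The medians over the 8 were -0.03 in oval cells against control liver, -0.13 in EPFs against control liver and 0.42 in oval cells against EPFs.

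Of 21 other TGF-beta target genes 15 had a probe, and all 15 were tested. In oval cells against control liver 9 rose and 1 fell, with a median log2 difference of 2.01. Timp1, an inhibitor of matrix proteases, was at 3746 in oval cells, 923 in EPFs and 485 in control liver, and vimentin (Vim) at 9480 in oval cells, 2898 in EPFs and 1199 in control liver. The smooth muscle gene Tagln was at least 6.76-fold, the inhibitor of differentiation gene Id1 at least 4.91-fold and Col1a2 7.87-fold higher in oval cells than in control liver. In EPFs against control liver 5 rose and 1 fell, with a median of 0.53, and here Id1 (at least 3.55-fold) and the AP-1 gene Junb led, Junb at 1455 in EPFs and 423 in control liver (log2 difference 1.96 ± 0.18, limma adjusted p = 3.51e-07). Bhlhe40, a circadian and hypoxia-linked repressor, fell in both, with means of 704 in oval cells, 582 in EPFs and 1699 in control liver. Against EPFs, 7 rose and 0 fell in oval cells, with a median of 0.79. The rises of Timp1, Vim and Tagln in EPFs ended with ribosomal protein genes as the centre, which left 2 higher and 3 lower of the 15, those of Timp1 and Tagln also without background correction, and that of Timp1 (limma adjusted p = 0.000413) also with cyclic loess and without EPF replicate 2 (0.89) or 3 (0.95).

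In the BMP system, the neighbouring branch of the family, 13 of 14 genes had a probe and 6 were tested. The activin and BMP antagonist follistatin (Fst) rose in both, by at least 5.04-fold in oval cells (limma adjusted p = 2.39e-05) and at least 2.04-fold in EPFs (limma adjusted p = 0.00227), with means of 1512 in oval cells, 611 in EPFs and 153 in control liver. The receptor gene Bmpr2 had means of 675 in oval cells, 303 in EPFs and 579 in control liver and fell in EPFs (log2 difference -1.13 ± 0.13, limma adjusted p = 3.47e-06), which was -0.93 both without control replicate 1 and without background correction. The pseudoreceptor gene Bambi had means of 690 in oval cells and 399 in control liver, a log2 difference of 0.91 ± 0.12 that was under the fold limit. Counted over the 6, oval cells against control liver had 1 higher and 0 lower, EPFs against control liver 1 and 1, and oval cells against EPFs 2 and 0. With ribosomal protein genes as the centre each comparison with control liver had 1 higher and 2 lower.

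**Figure D4:**
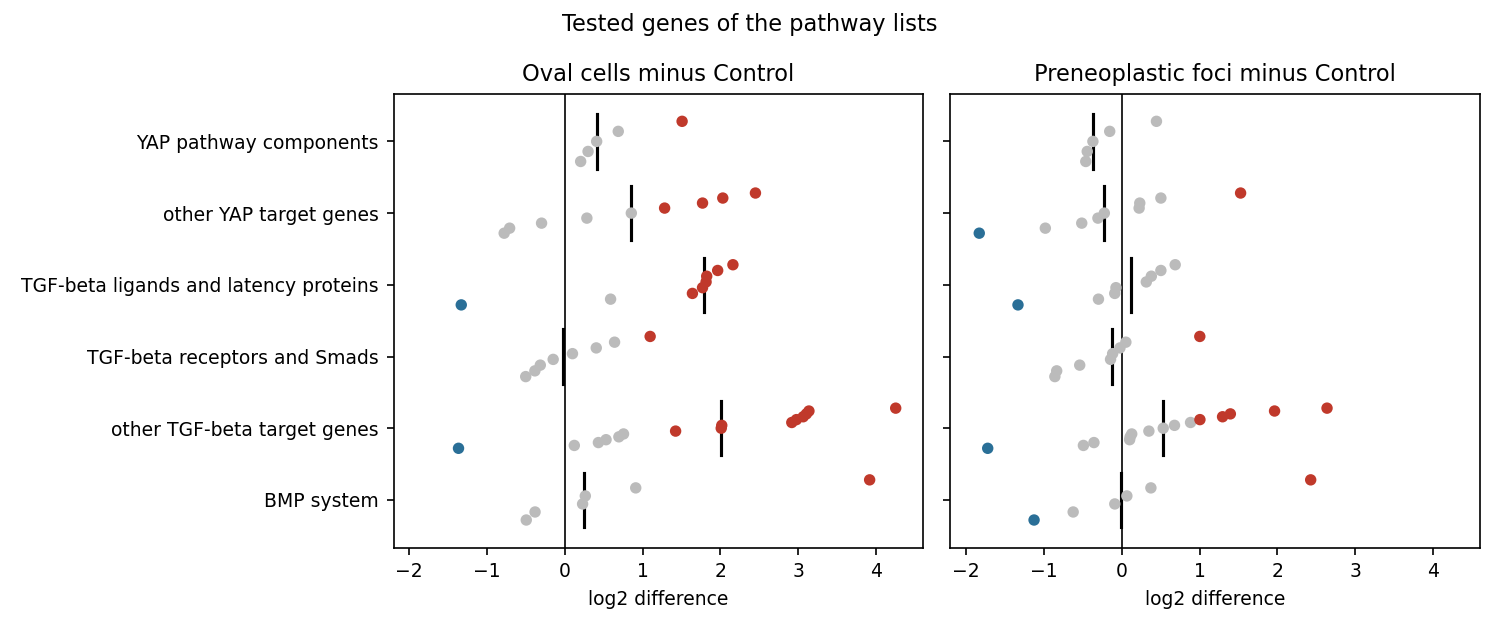
Fitted log2 differences of the tested genes of the 6 pathway lists (points), in oval cells minus control liver and in preneoplastic foci minus control liver, with the median of each list as a bar. Red points changed higher and blue points lower by adjusted p and 2-fold. Genes that passed the intensity filter through 1 group alone are included. The medians of the TGF-beta ligands and latency proteins and of the other TGF-beta targets lie at 1.79 and 2.01 in oval cells and at 0.12 and 0.53 in EPFs.

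In oval cells Ccn2 and Pmepa1 had the same 3 highest replicates as the sums of stellate cell, endothelial and biliary markers. Ccn1 and Ajuba shared only some of these replicates. The summed intensity of 11 markers of stellate cells and myofibroblasts ran from 29142 to 38486 in oval cells, 5486 to 10222 in EPFs and 7438 to 8375 in control liver. Much of it was Col1a2, with a mean of 21375 in oval cells. Of 7 tested markers 6 were higher in oval cells than in control liver (Tagln, Col1a2, Col1a1, Dcn, Des, Col3a1), against 13.5% of all tested probes. The other, Reln, had means of 1708 in oval cells, 798 in EPFs and 2069 in control liver. It was called lower in EPFs than in control liver. Rgs5, Ngfr and Gfap were under 300 on every array. Tagln, Col1a1, Col1a2 and Dcn stand in this list and in the pathway lists above. The summed stellate cell markers were highest within oval cells in replicates 4, 6 and 5, in this order (38486, 37823 and 35661). So were Ccn2 (13278, 12574 and 11051) and Pmepa1 (5407, 5282 and 5114). Below these replicates the orders of Ccn2, Pmepa1 and this sum differed. Within EPFs, replicates 2, 3, 5, 4 and 1 formed the falling order of Ccn2, of Pmepa1, of this sum, of the biliary sum, of the endothelial sum and of Krt19 (1248, 726, 591, 506 and 433). In oval cells the endothelial sum was also highest in replicates 4, 6 and 5 (7037, 6723 and 6453), whereas the biliary sum was highest in 6, 4 and 5 and Krt19 in 6, 5 and 2. Ccn1 was highest there in replicates 3, 4 and 5 (1637, 1441 and 1331) and Ajuba in 6, 2 and 1 (2614, 2185 and 2151). The dim Ankrd1 was highest in 4, 6 and 3 (343, 300 and 285). Within EPFs the falling order of Ccn1 was 2, 3, 4, 5 and 1. Replicates have no order of their own, and the part of such cells in the results was not tested. Without EPF replicate 2, Ccn2, Pmepa1 and Ccn1 in oval cells differed from EPFs by 3.14, 3.38 and 1.84 on the log2 scale.

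Markers were used to check the labels. The sum of 7 biliary and progenitor markers was 23738 to 36134 in oval cells, 3539 to 7122 in EPFs and 1870 to 2081 in control liver. Against control liver 7 of 7 were higher in oval cells (13.5% of all tested probes) and 5 of 7 in EPFs (10.3%). In EPFs the calls of Krt19 (0.57), Epcam (0.64) and Prom1 (0.75) ended with ribosomal protein genes as the centre, and that of Krt19 also with the methods' t-test (adjusted p = 0.0743) and without control replicate 1 (adjusted p = 0.0568). In oval cells the call of Krt7 against control liver ended with that centring (0.43) and without background correction (0.90). Krt19 (CK-19) was at 5363 to 8286 in oval cells and 248 and 347 in control liver, and Gstp1 at 40575 to 43186 in EPFs and 340 to 487 in control liver. As stains for both had guided the choice of oval cells, their levels there are no finding. The paper also recognises foci by GSTP staining, so the Gstp1 level in EPFs is no independent check of that label. The sum of 11 hepatocyte markers was 239430 to 272780 in oval cells, 212970 to 228510 in EPFs and 248070 to 258870 in control liver, and is carried by probes such as Alb and Tf near the top of the scale (means of 39885 for Alb and 38505 for Tf in oval cells). Of 10 tested hepatocyte markers 1 changed in oval cells against control liver, against 25.5% of all tested probes. This was Pck1, which rose, and Hnf4a was under 300 on every array. Lower on the scale, Asgr1 had means of 7253 in oval cells and 7169 in control liver, and Tat 7825 and 8184. Ttr, by contrast, had means of 23434 in oval cells and 39244 in control liver. The call of Pck1 ended with cyclic loess (0.80) and ribosomal centring (0.33), Ttr was lower with both (-1.20 and -1.61), and Cps1 and Fgb were lower with that centring. The endothelial sum was 5501 to 7037 in oval cells, 3629 to 4367 in EPFs and 2893 to 3351 in control liver, with Cdh5, Tek and Cd34 under 300 everywhere. The macrophage sum was 15027 to 20202 in oval cells, 9303 to 12789 in EPFs and 11030 to 14137 in control liver. Its markers went both ways in oval cells against control liver. Cd74 was higher (means 3521 and 978) and Cd14 lower (939 and 2228), the latter at -0.95 without control replicate 1. In EPFs Cd14 and Marco were lower than in control liver. Red cell transcripts had sums of 3154 to 7238 in oval cells, 6249 to 7647 in EPFs and 26237 to 29730 in control liver, and the lymphocyte and neutrophil sums reached 1899 at most.

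**Figure D5:**
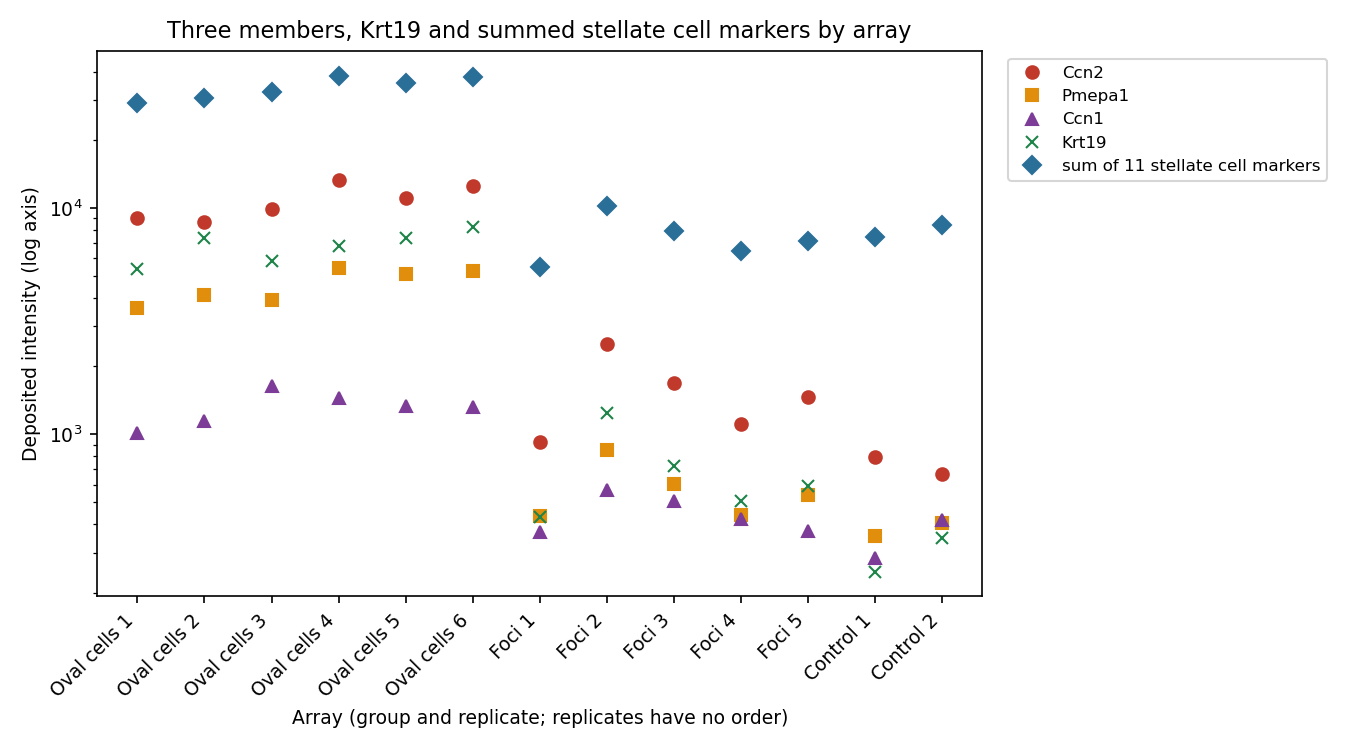
Deposited intensity (log axis) of Ccn2, Pmepa1, Ccn1 and Krt19 and the sum of 11 stellate cell markers on each array. Oval cell arrays are on the left, preneoplastic foci (EPFs) in the middle and control liver on the right, and symbols mark the gene or sum. EPF replicate 2 is the highest of its group for all 5, with Ccn2 at 2515 and the marker sum at 10222.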

How the data were processed

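Total RNA was hybridised to Illumina RatRef-12 arrays, 1 array per sample, and groups came from the labels. The deposited intensity of each probe is linear and was read by the authors with BeadStudio (submitters' processing notes name version 3.0.19.0) and quantile normalized, which gives every array one distribution and hides any shift of most genes. A further table holds 26 per-sample columns that no label identifies, and its values were left out. Values were corrected with normexp (offset 50), quantile normalized and log2 transformed with limma 3.58.1 under R 4.3.3. Of 22523 probes, 6997 with a median over 300 in at least 1 group were fitted on group means with Benjamini-Hochberg adjustment. The offset shrinks differences of dim probes. The annotation gave 13793 probes 1 symbol, 0 several and 8730 none, and 13752 of the named matched RefSeq. Where a gene has several probes the brightest stands for it. The fit was tested on simulated data.

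Named were all members, up to 5 changed genes with the smallest adjusted p of each pathway list in each comparison (beside a few unchanged ones chosen after their values were seen), the 3 probes closest to each member (for Crim1 1 of the 3 is not reported here), and markers. Members and lists were chosen with earlier results of these data known, and support no claim of independence. No set was tested. Alternatives were no background correction, an offset of 16, other filters on dim probes (among them the methods' filter on variable probes) and no fold limit. Others were a fit of the compared groups alone, array weights, cyclic loess, centring on 57 ribosomal protein probes, a plain t-test with pooled spread, and each array left out. The study names Student's t-test in its general statistics. It called array genes with a random variance model and permutation.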

Additional observations from a re-analysis of the deposited data

Results flagged for a closer look

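Crim1 was picked out because its 2 lesions lay on opposite sides of control liver. Every oval cell array (356 to 448) was above both controls (305 and 283), and every EPF array (196 to 213) was below them. That ordering was the rule of the pick and is no separate result. The share of all probes that show it was not counted. The direct difference, oval cells minus EPFs, was 1.27 on the log2 scale (limma adjusted p = 3.56e-09), with 0.94 without background correction. The oval cell side of the pattern turned with ribosomal protein genes as the centre. As these groups lay on different slides, an effect of the slide cannot be told apart from that of the group. By Dixon's criterion no array stood apart from its group in any of the 16 sets of member values examined.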

How the results depend on the processing

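Of the member values under other settings 406 kept their direction and their side of the limits, 9 passed limits they had missed, 8 no longer passed and 3 turned round. The 3 came from centring on ribosomal protein genes, namely Crim1 in oval cells against control liver (-0.30) and, in EPFs against control liver, Ccn1 (-0.38) and Pmepa1 (-0.17). Settings that change only the filter, the fold limit, the groups fitted or the test keep the same log2 difference. So does leaving out an array of a group outside the comparison. Such values could not turn round, so the 406 are no measure of how firm the directions are. The count of members changed in EPFs against control liver, 2, was 5 with no fold limit. It was 1 without background correction, with cyclic loess and with the plain t-test, where Ccn2 was lost. With the methods' filter it was also 1, as Tgfbi was not among the 4 members tested. Leaving out single arrays gave 1 to 3, with 1 without EPF replicate 2. The member counts in oval cells were the same whichever array was left out, 5 against control liver and 4 against EPFs.

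Probes changed in oval cells against control liver numbered 941 with the methods' filter, 4958 with no fold limit and 3266 after ribosomal centring. For EPFs against control liver they numbered 633, 4532 and 2866 under the same settings. In oval cells against EPFs there were 4902 with no fold limit. The plain t-test passed 5017, 4363 and 4975 probes unadjusted in oval cells against control liver, EPFs against control liver and oval cells against EPFs. After Benjamini-Hochberg it passed 4802, 3923 and 4779. Without background correction the list rises of Jag1 and Acvrl1 in oval cells and of Smad7, Tagln and Timp1 in EPFs against control liver fell under the limits, as did Inhba in both. No paired analysis was possible because the labels give all arrays of a group the same number. Other probes of the members were not run, as each had only 1. Ankrd1 and Tgfb1 were too dim to be tested.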
